A study of Mus musculus with 4 samples.

Results

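The genes described here are 8 annexins (Anxa1, Anxa2, Anxa3, Anxa4, Anxa5, Anxa6, Anxa7 and Anxa11) and S100a10, 9 of the 37620 genes in the count table of an RNA-seq experiment on mouse embryonic stem cells (mESCs). They were found by their gene symbols, and all 9 were among the 16264 genes that passed the filter on low counts. Anxa2 was selected on its rise in MUT_CTCF mESCs, so its difference between the lines is given as a description without a test. The other 8 were taken as relatives and as the binding partner of Anxa2.

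Annexins are cytosolic proteins that bind negatively charged membrane phospholipids when calcium is raised. They act in membrane trafficking, in the repair of plasma membrane lesions and in linking membranes to actin. S100A10, also known as p11, belongs to the S100 family of small EF-hand proteins but does not need calcium to bind its partner. A dimer of S100A10 joins 2 molecules of annexin A2 through their N-terminal tails into a heterotetramer, which sits under the plasma membrane and on the cell surface, where it binds plasminogen and tissue plasminogen activator. Binding to annexin A2 also protects S100A10 from degradation, a step that acts on the protein and is not seen by RNA-seq.

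The sequence that ties Anxa2 to S100a10 is the start of its coding region, which encodes the tail bound by S100A10. It is shown from the mm9 transcript of the GENCODE M1 annotation, with the start codon in capitals.
Anxa2 coding start: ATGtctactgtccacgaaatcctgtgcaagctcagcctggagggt

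The 250 bases before the RefSeq start of Anxa2 are shown because Anxa2 is the one of the 9 genes whose RNA differed most between the lines. The sequence is from the RefSeq promoter table of GRCm38.p6 and matched the mm9 genome exactly and at a single place, the plus strand at chr9:69301240-69301489. GENCODE M1 places the start of the gene at 69301427, inside this window. Capitals mark matches to 4 motifs.
Anxa2 promoter: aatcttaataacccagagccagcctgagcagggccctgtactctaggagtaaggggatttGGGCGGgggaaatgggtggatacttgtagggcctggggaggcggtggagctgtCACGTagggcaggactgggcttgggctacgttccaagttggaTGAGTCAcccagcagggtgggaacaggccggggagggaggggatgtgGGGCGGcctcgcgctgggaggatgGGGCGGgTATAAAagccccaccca

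The motifs were searched as exact letters on both strands, none of the marked matches overlapped another, and each is a match of letters and not a shown binding site. TATAAA, the TATA box, was found 17 to 12 bases before the start, and 12.4% of 32851 mouse promoter windows of the same length held it. TGANTCA, the motif of AP-1 factors, was found 95 to 89 bases before the start and was held by 6.75% of windows. ACGTG, the core of hypoxia response elements, lay on the minus strand 137 to 133 bases before the start and was held by 16.6% of windows. GGGCGG, the GC box, was found 3 times and was held by 32.7% of windows. These positions are counted from the RefSeq start. By the GENCODE M1 start at 69301427, TATAAA and the GC boxes 48 to 43 and 24 to 19 bases before the RefSeq start lie inside the gene. AGGGGGC, a part of the CTCF motif, had no match in the Anxa2 window and was held by 9.43% of windows. RefSeq promoters were found for 6 of the 9 genes in 8 windows (Anxa1, Anxa2, Anxa4, Anxa5, Anxa7 and Anxa11). Among these only the Anxa2 window held TGANTCA, while TATAAA was held by those of Anxa2 and Anxa1. ACGTG was also held by the Anxa5 window and by an Anxa7 window, and GGGCGG also by windows of Anxa7 and Anxa11. Promoters of Anxa3, Anxa6 and S100a10 were not analysed here.

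The cells derive from CTCF-EGFP-AID ESCs, also called CTCF-mAID mESCs, in which the tag lets auxin trigger the destruction of endogenous CTCF. In both groups the tagged protein was removed with auxin and CTCF was supplied from a vector, as the wild type in WT_CTCF mESCs (genotype WT in the labels) or mutated at T668, a site of O-GlcNAc, in MUT_CTCF mESCs. Both lines were grown in medium with serum and LIF, and each was a picked clone whose CTCF was close to the endogenous level, so that clone and genotype cannot be told apart. There were 2 biological replicates per line. The counts per library summed to between 40524694 and 40977464, and all 12 of the embryonic stem cell markers listed were tested, with summed normalized counts (counts scaled by TMM to the mean library) of 310579 to 314081 in the 4 libraries.

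Anxa2 RNA was higher in both MUT_CTCF libraries than in both WT_CTCF libraries. This gene on mm9 chromosome 9 (69301427 to 69339602, plus strand, ENSMUSG00000032231) encodes annexin A2. Its counts were 220 and 256 in WT_CTCF, against 603 and 618 in MUT_CTCF. The groups did not overlap, and the lower MUT_CTCF library lay far above the higher WT_CTCF library. WT_CTCF averaged 239 ± 25.6 and MUT_CTCF 609.6 ± 16.4 normalized counts (SD, n = 2 each), a 2.55-fold difference. On the log2 scale the difference was 1.35, a size that carries the selection of the gene on its rise. Among the 11593 genes with a mean of at least 100 normalized counts, 2 had a larger rise, and among all tested genes 119 did. In bulk RNA such as this, a larger number of cells that express a gene and more of its RNA per cell cannot be told apart.

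The reads on Anxa2 could in principle come from genes that overlap it, since the strand setting of the counting is not given in the sources used here. Gm16144, an antisense gene inside Anxa2, had 0 counts in all 4 libraries, and the miRNA gene CT009708.1 had 1 count in 1 MUT_CTCF library and 0 in the others. The Anxa2 transcript with the longest coding sequence, of 1447 bases, had no other stretch in mm9 with at least 90% identity over at least 100 bases. The remaining exon sequence of the gene, which has 3731 bases of exon in all, was not searched. Between any 2 of the 9 genes, compared by transcripts chosen in the same way, the longest stretch of identical bases was 10 to 18 bases. These transcripts thus do not share long runs of sequence with each other.

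S100a10 RNA was not higher in MUT_CTCF, and its values in the 4 libraries lay the opposite way to those of Anxa2. The gene on chromosome 3 (93359002 to 93368565, plus strand, ENSMUSG00000041959) had 894 and 884 counts in WT_CTCF and 845 and 733 in MUT_CTCF. Both MUT_CTCF libraries were below both WT_CTCF libraries. WT_CTCF averaged 891 ± 6.61 and MUT_CTCF 787 ± 71.6 normalized counts (SD, n = 2 each). The log2 difference of -0.18 (standard error 0.0929, 95% interval -0.36 to 0.0080) did not pass the test, with an adjusted p of 0.36 by edgeR's quasi-likelihood test with Benjamini-Hochberg adjustment over 16264 genes. The value depended on the MUT_CTCF libraries, at -0.27 without replicate 1 and -0.090 without replicate 2, and passed the test in neither case.

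The ratio between the RNAs of the partners was smaller in both MUT_CTCF libraries. In normalized counts per kb of exon sequence, the scale used here to compare levels between genes, S100a10 stood at 739 and 731 in WT_CTCF and at 691 and 608 in MUT_CTCF. Anxa2 stood at 59.1 and 68.8 in WT_CTCF and at 160.3 and 167 in MUT_CTCF. S100a10 RNA was thus above Anxa2 RNA in every library, by 12.5 and 10.6 times in WT_CTCF and by 4.31 and 3.65 times in MUT_CTCF. The size of this ratio depends on the lengths used, here 3731 bases of exon for Anxa2 and 1212 for S100a10. Per kb of the longest transcript, the WT_CTCF means were 1301 for S100a10 and 105 for Anxa2. The transcripts with the longest coding sequence, of 685 and 1447 bases, were not used for the ratio. The ratio averaged 11.6 ± 1.33 in WT_CTCF and 3.98 ± 0.469 in MUT_CTCF (SD, n = 2 each). Since Anxa2 was chosen on its rise, the change of the ratio has no test.

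**Figure D1:**
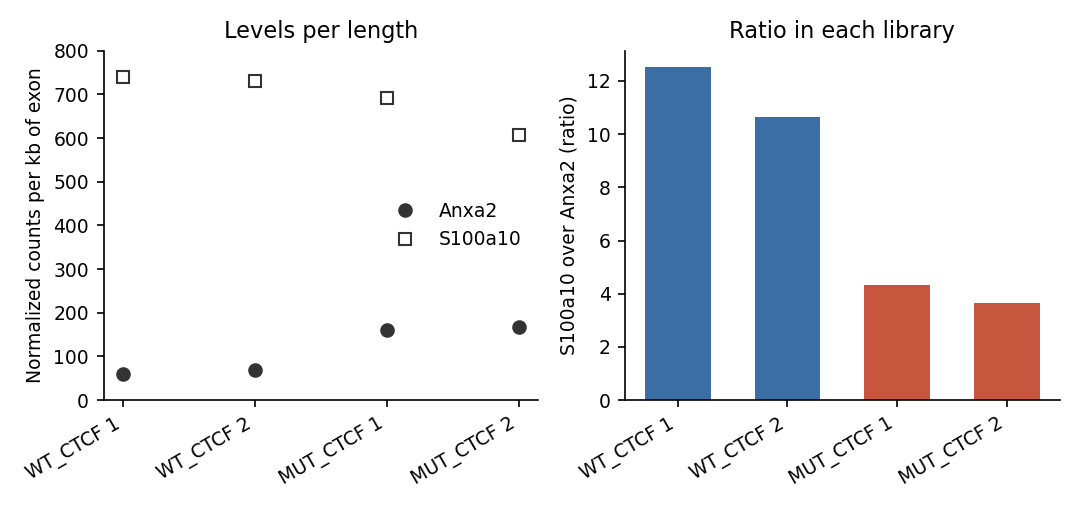
Levels of Anxa2 and S100a10 RNA in each library, in normalized counts per kb of exon, and the ratio of S100a10 to Anxa2 in the same libraries. Each point on the left and each bar on the right is 1 library, and the ratio lies at 12.5 and 10.6 in WT_CTCF and at 4.31 and 3.65 in MUT_CTCF.

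None of the 8 other genes passed the test in either direction. At an adjusted p under 0.05, 0 of 8 were higher and 0 of 8 were lower in MUT_CTCF, where 1.56% and 1.61% of all tested genes were higher and lower. By the criterion of the study, an unadjusted p under 0.05 with a fold above 2, the count was also 0 of 8, against 1.30% of all tested genes. Their log2 differences ran from -0.49 to 0.15 with a median of 0.023, and 4 of 8 were positive, while the median of all tested genes was 0.0034 with 50.8% positive. In 5 of the 8 the 2 lines did not overlap (Anxa6 and Anxa11 higher, Anxa3, Anxa5 and S100a10 lower in MUT_CTCF), and 44.7% of all tested genes showed such a separation. At an unadjusted p under 0.05 the count was 1 of 8, Anxa6, against 15.3% of all tested genes. By DESeq2, at an adjusted p under 0.05, the count was 0 of those given an adjusted p, which Anxa1, Anxa3 and Anxa5 were not.

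**Figure D2:**
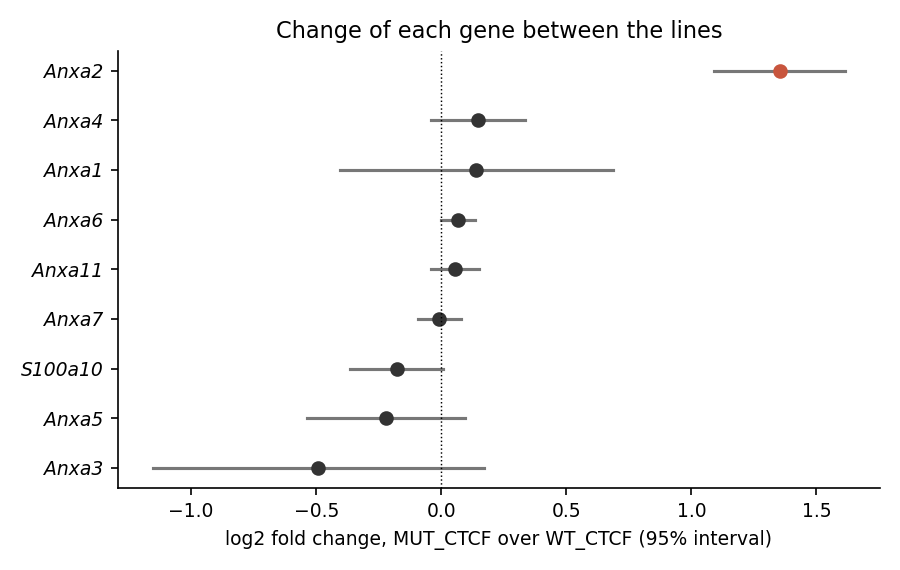
Log2 fold change of MUT_CTCF over WT_CTCF for the 9 genes, with bars for the 95% interval of edgeR's fit. Anxa2, selected on its rise, lies at 1.35, and the other 8 lie between -0.49 and 0.15. The bar of Anxa2 does not allow for that selection and is not a test.

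The relatives with fewer reads were Anxa1, Anxa3, Anxa4 and Anxa5. Anxa1, known as a glucocorticoid-induced mediator that limits inflammation, had 94 and 83 counts in WT_CTCF and 111 and 85 in MUT_CTCF (chromosome 19, 20447918 to 20465434, minus strand). Its groups overlapped and its log2 difference was 0.14 (standard error 0.273, adjusted p 0.88). Anxa3, best known from neutrophil granules, had 66 and 91 counts in WT_CTCF and 54 and 58 in MUT_CTCF (chromosome 5, 97222404 to 97274987, plus strand). Its groups did not overlap, but the WT_CTCF libraries lay further apart than the nearest libraries of the 2 lines, and the log2 difference of -0.49 (standard error 0.330) had an adjusted p of 0.53. Leaving out WT_CTCF replicate 1 gave -0.71, and leaving out replicate 2 of that line gave -0.24.

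Anxa4, an annexin of epithelial membranes, had 921 and 863 counts in WT_CTCF and 1128 and 856 in MUT_CTCF (chromosome 6, 86686834 to 86743578, minus strand). A single MUT_CTCF library was the highest and the other the lowest of the 4, so the groups overlapped, and the log2 difference of 0.15 (standard error 0.0942, adjusted p 0.50) became -0.055 without MUT_CTCF replicate 1. Anxa1 turned in the same way, to -0.054. Anxa5, whose protein is used as a probe of phosphatidylserine on dying cells, had 286 counts in both WT_CTCF libraries and 272 and 221 in MUT_CTCF (chromosome 3, 36347847 to 36374765, minus strand). Both MUT_CTCF libraries were below WT_CTCF, but they were further from each other than the higher was from WT_CTCF, and the log2 difference of -0.22 (standard error 0.157) had an adjusted p of 0.56. Leaving out MUT_CTCF replicate 1 gave -0.37, and leaving out replicate 2 of that line gave -0.089.

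The abundant relatives were Anxa6, Anxa7 and Anxa11, whose counts bound any difference closely. Anxa6, the annexin with a doubled core of repeats, had 11110 and 10603 counts in WT_CTCF and 11606 and 11225 in MUT_CTCF (chromosome 11, 54792610 to 54846947, minus strand). The groups did not overlap, and the log2 difference was 0.067 with a 95% interval of 0.00033 to 0.13 and an adjusted p of 0.33. It was 0.033 without WT_CTCF replicate 2. Anxa7, or synexin, an annexin of secretory vesicle fusion, had 4655 and 4713 counts in WT_CTCF and 4713 and 4645 in MUT_CTCF (chromosome 14, 21274483 to 21299355, minus strand). These groups overlapped, and the 95% interval of the log2 difference of -0.0072 was -0.095 to 0.080.

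Anxa11, which binds the calcium-binding protein ALG-2 and tethers RNA granules to lysosomes, had 3649 and 3659 counts in WT_CTCF and 3826 and 3791 in MUT_CTCF (chromosome 14, 26661669 to 26706290, plus strand). Its groups did not overlap, and the log2 difference was 0.054 (95% interval -0.041 to 0.15, adjusted p 0.67). Searched by the transcript with the longest coding sequence of each gene, only Anxa11 of the 9 genes had near-identical copies in mm9. Bases 1450 to 2367 of its 2367-base transcript had identical matches in 2 other places of chromosome 14, from 26843397 to 26846060 and from 26983011 to 26985674. Only uniquely mapped reads were counted, so reads from that stretch may be missing and the level of Anxa11 is uncertain.

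**Figure D3:**
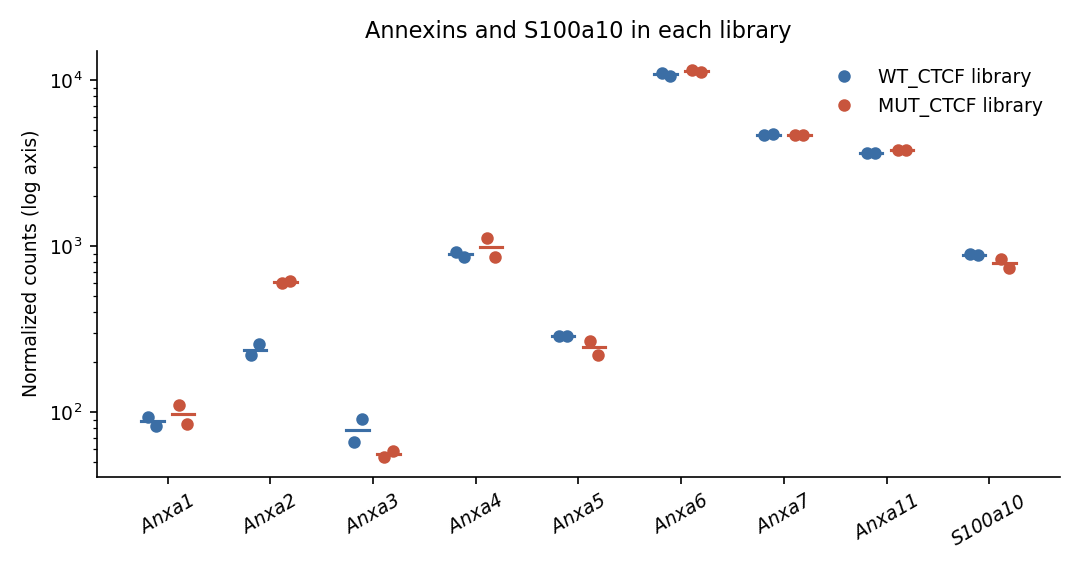
Normalized counts of the 9 genes in the 4 libraries on a log scale, with a point per library and a line at each group mean. The lines differ clearly in Anxa2, at 239 in WT_CTCF and 609.6 in MUT_CTCF, while the points of the other genes lie close together or overlap.

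By level per kb of exon in WT_CTCF, the order was Anxa6 at 3714, Anxa7 at 1549, Anxa11 at 892, S100a10 at 735, Anxa4 at 192, Anxa5 at 171, Anxa2 at 63.9, Anxa3 at 49.3 and Anxa1 at 34.0 normalized counts per kb. Anxa6 thus made up 50.2% of the summed level of the 9 genes and Anxa7 another 20.9%. The library values of neighbours in this order did not overlap in WT_CTCF, although Anxa2 at 59.1 and 68.8 and Anxa3 at 41.4 and 57.1 came close. Anxa3 and Anxa1 changed places when the longest transcript was used for the length. In MUT_CTCF, Anxa2 stood 6th in place of 7th, at 163 ± 4.39 (SD, n = 2), above Anxa5 at 147 ± 20.1 (SD, n = 2). The libraries of these neighbours overlapped. Anxa4, next above Anxa2, stood at 213 ± 39.3 (SD, n = 2), and its libraries did not overlap those of Anxa2. Anxa1 and Anxa3, at 37.5 and 35.0 in MUT_CTCF, overlapped as well.

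Anxa2 stayed a small share of annexin RNA in both lines. Summed over the 8 annexins, the level per kb averaged 6665 ± 97.7 in WT_CTCF and 6952 ± 113 in MUT_CTCF (SD, n = 2 each). Anxa2 made up 0.960% ± 0.117 of that sum in WT_CTCF and 2.35% ± 0.101 in MUT_CTCF (SD, n = 2 each). Among all tested genes ranked by level per kb in WT_CTCF, Anxa2 lay at percentile 35.7, S100a10 at 77.6 and Anxa6 at 95.8.

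Among 4 further annexin genes, Anxa8 alone had more than 31 counts in any library. Of Anxa8, Anxa9, Anxa10 and Anxa13, 2 were tested and 0 passed in either direction. The shares over all tested genes were 1.56% higher and 1.61% lower. Anxa8 had 424 and 386 counts in WT_CTCF and 346 and 366 in MUT_CTCF, with a log2 difference of -0.19 (adjusted p 0.54). Its level in WT_CTCF, 216 normalized counts per kb, was above those of Anxa4, Anxa5, Anxa2, Anxa3 and Anxa1. Anxa9 had 14 to 31 counts per library and a log2 difference of 0.53 with a standard error of 0.566 (adjusted p 0.74). Anxa10 and Anxa13 did not reach the filter, and Anxa10 had 10 and 1 counts in WT_CTCF and 26 and 2 in MUT_CTCF.

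No S100 gene passed the test, where 1.56% of all tested genes were higher and 1.61% lower. Of 16 listed, which include S100pbp, the gene of an S100-binding protein, 7 were tested and 0 passed in either direction, with a median log2 difference of -0.11, and 5 (S100a4, S100a5, S100a8, S100a9 and S100z) had 0 counts in every library, which allows up to 3 counts by sampling. S100a11, the partner of annexin A1, had 1310 and 1369 counts in WT_CTCF and 1246 and 1250 in MUT_CTCF, a log2 difference of -0.11 (adjusted p 0.55). S100a6, a partner of several annexins, had 74 and 100 counts in WT_CTCF and 47 and 99 in MUT_CTCF (-0.26, adjusted p 0.79). S100a14 stayed at 10 to 19 counts per library (-0.75, adjusted p 0.69).

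Of 16 genes whose proteins bind annexins or S100A10 or work beside them, 15 were tested, 2 rose and 0 fell. Their median log2 difference was -0.035. At the same adjusted p under 0.05, 1.56% of all tested genes were higher and 1.61% lower. Ctsb, the protease cathepsin B, which binds the annexin A2 complex at the cell surface, had 7324 and 7321 counts in WT_CTCF and 8278 and 8178 in MUT_CTCF and rose by 0.16 in log2 (standard error 0.0361, adjusted p 0.0040). Dlc1, a tumour suppressor that binds S100A10, had 5073 and 5369 counts in WT_CTCF and 5792 and 5831 in MUT_CTCF and rose by 0.15 (standard error 0.0419, adjusted p 0.033). In both genes the lines did not overlap, and the differences were far smaller than that of Anxa2. Ahnak, the giant scaffold protein bound by the annexin A2 and S100A10 complex, had 4489 and 4356 counts in WT_CTCF and 4147 and 3842 in MUT_CTCF, and its log2 difference of -0.15 (adjusted p 0.054) did not pass. The call of Dlc1 was lost with DESeq2, and both calls were lost without a filter on low counts and in each of the 4 fits with 1 library left out, WT_CTCF libraries included.

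Of 17 genes of the plasminogen system, which the annexin A2 complex assists at the cell surface, 14 were tested, 2 rose and 0 fell. Their median log2 difference was 0.074. Of all tested genes, 1.56% were higher and 1.61% lower. Lrp1, the endocytic receptor that clears protease and inhibitor complexes, had 7533 and 7805 counts in WT_CTCF and 8743 and 9414 in MUT_CTCF and rose by 0.24 (standard error 0.0377, adjusted p 1.76e-05). Eno1, a glycolytic enzyme that is also found on cell surfaces as a plasminogen receptor, had 54643 and 54212 counts in WT_CTCF and 58525 and 59432 in MUT_CTCF and rose by 0.11 (standard error 0.0220, adjusted p 0.000966). The activators and their receptor were low, with 58 to 81 counts per library for Plat, 75 to 79 for Plau and 85 to 93 for Plaur, and none of these passed the test. Mmp2, a gelatinase, had 779 and 593 counts in WT_CTCF and 720 and 843 in MUT_CTCF (0.18, adjusted p 0.43). Plg itself did not reach the filter. The calls of Lrp1 and Eno1 were lost without a filter on low counts and without either MUT_CTCF library, but not without either WT_CTCF library.

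Of 24 genes of membrane repair and caveolae, 20 were tested, 0 rose and 1 fell, with a median log2 difference of -0.029. The shares over all tested genes were 1.56% higher and 1.61% lower. Flna, the actin crosslinker filamin A, had 39111 and 39209 counts in WT_CTCF and 36883 and 36922 in MUT_CTCF and fell by 0.091 in log2 (standard error 0.0238, adjusted p 0.019). This call was lost with library size scaling, without a filter, with the exact test of edgeR and with any 1 of the 4 libraries left out. Ehd1, a membrane-shaping ATPase, had 11174 and 11278 counts in WT_CTCF and 10583 and 10609 in MUT_CTCF (-0.089, adjusted p 0.14). Ahnak is in this list too, with the values given above. None of the 5 genes that passed in these last 3 lists did so by the criterion with a fold above 2, and without either MUT_CTCF library no gene of the whole table passed at an adjusted p under 0.05.

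Of 9 genes whose bodies lay within 500 kb of that of Anxa2, 3 were tested and 0 passed the test. Over all tested genes, 1.56% were higher and 1.61% lower. Narg2, which encodes a subunit of an elongation complex at small nuclear RNA genes and starts 55.7 kb before Anxa2, had 258 and 281 counts in WT_CTCF and 321 and 224 in MUT_CTCF, with overlapping groups (log2 difference 0.0091, standard error 0.161, adjusted p 0.99). Rora, a nuclear receptor gene, had 44 to 50 counts per library (-0.0052, standard error 0.397), and Bnip2, a BCL2-interacting protein gene, had 1374 to 1451 (-0.039, standard error 0.0721). Of 29 genes whose bodies lay within 500 kb of that of S100a10, 7 were tested and 0 passed, against the same shares. Their log2 differences ran from -0.37 to 0.059. The tested genes included S100a11, which lies 28793 bases from S100a10.

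**Figure D4:**
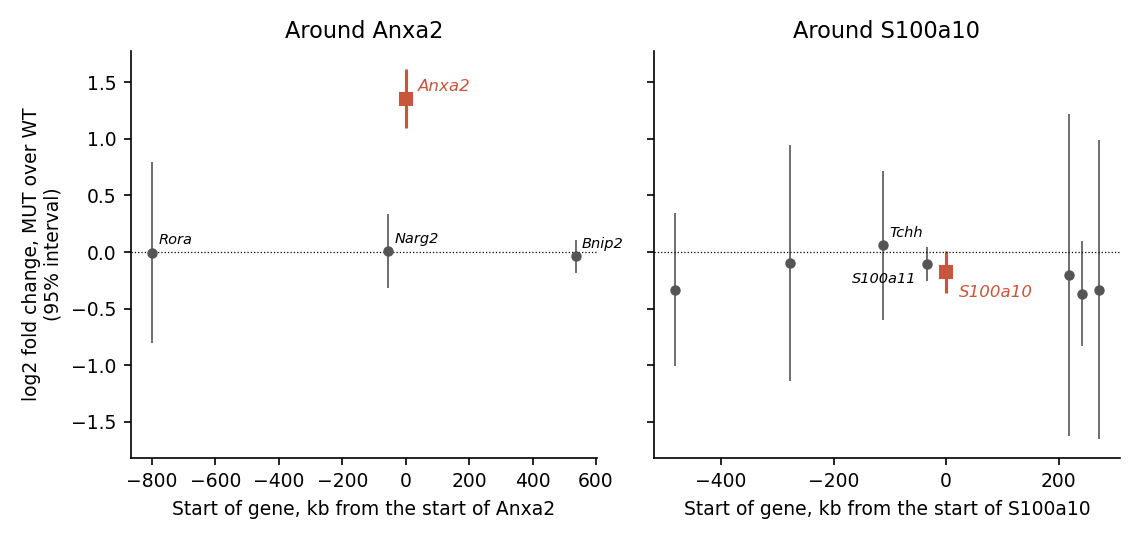
Log2 fold change of MUT_CTCF over WT_CTCF, with 95% intervals, for tested genes whose bodies lie within 500 kb of that of Anxa2 or S100a10. The horizontal axis is the distance in kb between gene starts, which is beyond 500 kb for Rora and Bnip2. Anxa2 stands at 1.35, while Rora, Narg2 and Bnip2 lie at -0.0052, 0.0091 and -0.039. The interval of Anxa2 does not allow for its selection and is not a test.

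The genes whose pattern over the 4 libraries lay nearest to that of Anxa2 were Krt19, Ndrg1, Bhlhe40, Bnip3 and Slc16a3. Nearness was the Euclidean distance between log2 CPM values (log2 of counts scaled by library size) centred on the mean of each gene, over 11592 other genes with a mean of at least 100 normalized counts, and 4 libraries in 2 groups make it largely a ranking by the size of the rise. Krt19, an epithelial keratin, was nearest at 0.26, with 124 and 141 normalized counts in WT_CTCF and 268 and 325 in MUT_CTCF. Ndrg1, a stress-responsive gene, followed at 0.29, with 278 and 273 normalized counts in WT_CTCF and 705 and 598 in MUT_CTCF. In both genes, as in Anxa2, the MUT_CTCF libraries were above the WT_CTCF libraries. Bhlhe40, a transcriptional repressor, stood at 0.30 with a log2 difference of 1.07, Bnip3, a mitophagy receptor, at 0.32 with 1.60, and Slc16a3, a lactate exporter, at 0.34 with 1.03. The ranking used the same libraries as the choice of Anxa2 and has no test. Krt19 is also one of the trophectoderm markers, and its test is given with that list.

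**Figure D5:**
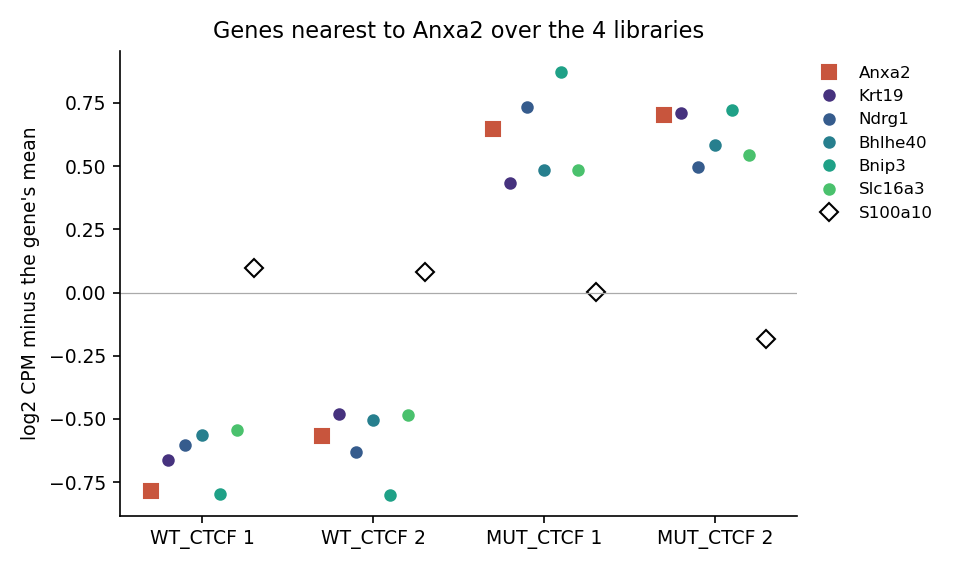
Log2 CPM minus the mean of the gene in each library, for Anxa2, the 5 genes nearest to it and S100a10. Points are single libraries, and the 5 genes lie below their means in WT_CTCF and above them in MUT_CTCF, whereas S100a10 lies near its mean throughout.

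Markers of other cell types that carry Anxa2 were also read. Of 18 fibroblast markers, 12 were tested, 1 rose and 0 fell, where 1.56% and 1.61% of all tested genes were higher and lower. The markers had a median log2 difference of 0.11. Their summed normalized counts were 4204 and 4284 in WT_CTCF and 4313 and 4919 in MUT_CTCF. Lum and S100a4 had 0 counts in every library, Dcn had at most 6 and Postn at most 4. Acta2, the smooth muscle actin gene, did not reach the filter and had 1 and 2 counts in WT_CTCF and 8 and 17 in MUT_CTCF. Prrx1, also below the filter, went the other way, with 1 and 6 counts in WT_CTCF and 1 and 0 in MUT_CTCF. So did Tagln, with 75 and 83 counts in WT_CTCF and 65 and 69 in MUT_CTCF (log2 difference -0.24, adjusted p 0.80). Fbln2, an extracellular matrix protein gene, had 147 and 126 counts in WT_CTCF and 193 and 258 in MUT_CTCF (log2 difference 0.72, adjusted p 0.026), while Col3a1, a fibrillar collagen gene, had 26 and 23 and then 12 and 5 (-1.52, adjusted p 0.29). Col1a1, the main collagen of fibroblasts, had 193 to 238 counts per library and Thy1, a surface marker, had 596 and 654 in WT_CTCF and 700 and 744 in MUT_CTCF (0.20, adjusted p 0.33).

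Of 16 primitive endoderm markers, 14 were tested and 0 passed, where 1.56% and 1.61% of all tested genes were higher and lower. Their median log2 difference was 0.13 and 10 of 14 were positive (71.4%, against 50.8% of all tested genes). The sums were 68026 and 68262 in WT_CTCF and 68955 and 68969 in MUT_CTCF, most of them from the laminin gene Lamc1, with 39668 to 41036 counts per library, and the matrix gene Sparc, with 13284 to 14639. Gata6, a factor that specifies this lineage, had 57 and 50 counts in WT_CTCF and 99 and 108 in MUT_CTCF, a log2 difference of 0.95 (adjusted p 0.073). Sox17, an endoderm factor, had 57 and 46 and then 66 and 108 (0.75, adjusted p 0.26), and Lamb1, another laminin gene, and Sparc had 0.18 and -0.090 (adjusted p 0.090 and 0.11). Of 12 trophectoderm markers, 11 were tested, 1 rose and 2 fell, where 1.56% and 1.61% of all tested genes were higher and lower. The markers had a median log2 difference of -0.12 and sums of 7637 and 7338 in WT_CTCF and 7494 and 7601 in MUT_CTCF. Krt19 rose by 1.16 (adjusted p 1.21e-05), while Cdx2, the factor that specifies the lineage, fell by 0.97 (adjusted p 0.000227) and the keratin gene Krt8 fell by 0.30 (adjusted p 0.032). Of the 12 embryonic stem cell markers, 1 rose and 3 fell, against the same shares of all tested genes, 1.56% and 1.61%. The median log2 difference of these markers was -0.041. Those that passed were Sox2 at 0.095, Utf1 at -0.21, Dppa5a at -0.099 and Dppa4 at -0.21. Without a filter on low counts the calls of these 4, of Krt19, Cdx2 and Krt8 and of Fbln2 were lost. Those of Krt8 and Dppa4 were also lost with DESeq2 and with library size scaling, and those of Sox2 and Dppa5a with edgeR's exact test. DESeq2 gave no adjusted p for Krt19, Cdx2 and Fbln2. Sox2, Utf1, Dppa4 and Krt8 passed in none of the 4 fits with 1 library left out. Dppa5a, at -0.055 without WT_CTCF replicate 1 and -0.14 without WT_CTCF replicate 2, passed in 1 of them, as did Fbln2. The part of other cell types in the rise of Anxa2 was not tested.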

How the data were processed

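RNA-seq was made from 2 WT_CTCF and 2 MUT_CTCF mESC libraries. Reads were trimmed with Trim Galore 0.4.4 per the submitters' processing notes, and the authors used STAR with mm9 as the reference and deposited raw counts of uniquely mapped reads per gene from HTSeq 0.9.1, with no normalization. The annotation release and strand setting are not given in the sources used here. A deposited table of the authors' own edgeR comparison, with fold changes and p-values, was not used.

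GENCODE M1 (mm9) named 37205 of 37620 gene identifiers. Counts were filtered by filterByExpr (minimum count 10, leaving 16264 genes and 99.96% of counts), scaled by TMM and tested with edgeR 4.0.16 (glmQLFit, glmQLFTest, R 4.3.3), with Benjamini-Hochberg adjustment over all tested genes. Standard errors are the log2 difference divided by the root of F. The steps were tested on simulated counts. An exact permutation test of 2 against 2 cannot go below a two-sided p of 0.333, so p-values rest on the spread pooled across genes (common dispersion 0.0022). Replicates differed beyond sampling noise (chi-square per degree of freedom 3.65 and 4.33).

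The genes and lists were chosen with earlier results of these data known. Named genes were the members, the 3 smallest p-values of each list, tested genes within 500 kb of Anxa2 and the 5 genes most like it. Other genes (Anxa10, Anxa13, S100 genes at 0, Plat, Plau, Plaur, Plg, Lum, Dcn, Postn, Col1a1, S100a4, Acta2, Prrx1, Tagln, Sox17, Lamc1, Dppa4) were named after their values were seen. Alternatives were DESeq2 1.42.0, its size factors in edgeR, library size scaling, edgeR's exact test, no filter, a replicate block, a filter of 10 reads in all libraries, each library left out, the study's criterion and transcript length. Copies were searched with blastn 2.17.0. Intervals and the limit at 0 counts cover counting and fitted error only.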

Additional observations from a re-analysis of the deposited data

How the results depend on the processing

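Over 11 alternatives (7 with all libraries), all 11 log2 differences of Anxa2 kept the direction on which it was selected. Including these, 95 of 99 log2 differences of the 9 genes kept their direction. Of the 85 that carry an adjusted p, which those of Anxa2 do not, 0 passed at an adjusted p under 0.05. DESeq2 gave an adjusted p for 7120 genes and none for 4 of the 9. Anxa2 ran from 1.25 to 1.47, and S100a10 from -0.27 to -0.090 with adjusted p from 0.31 to 0.75. Anxa7 turned to 0.0051 with library size only and to 0.0012 without WT_CTCF replicate 2, and Anxa1 and Anxa4 turned to -0.054 and -0.055 without MUT_CTCF replicate 1. With 1 library left out, Anxa7 ran from -0.017 to 0.0012, Anxa1 from -0.054 to 0.31, Anxa4 from -0.055 to 0.32, Anxa3 from -0.71 to -0.24, Anxa5 from -0.37 to -0.089 and Anxa6 from 0.033 to 0.10. With the longest transcript as length, Anxa1 stood 8th and Anxa3 9th. Over all genes, 253 were higher and 262 lower. DESeq2 called 129 higher, library size only called 152 lower, and no filter left 26 higher and 3 lower. Without 1 library, 0 to 140 genes were higher and 0 to 102 lower, and the lone library is then assumed to vary like the pair. Both counts were 0 without MUT_CTCF replicate 1 and without MUT_CTCF replicate 2, against 130 and 63 without WT_CTCF replicate 1 and 140 and 102 without WT_CTCF replicate 2. By the study's criterion the calls were 0 of the annexin partners, 0 of the plasminogen system, 0 of the membrane repair genes, 0 of the embryonic stem cell markers and 1 of the trophectoderm markers, while the 1 fibroblast marker was Col3a1 in place of Fbln2. The replicate numbers did not pair the libraries (correlation of deviations 0.0188), and a replicate block gave S100a10 -0.18 with an adjusted p of 0.31, with 326 genes higher and 372 lower. Adjusted p over the alternatives with all libraries ran from 0.000670 to 0.154 for Ctsb, 0.0121 to 0.299 for Dlc1, 7.29e-09 to 0.167 for Lrp1, 6.57e-05 to 0.167 for Eno1 and 0.00640 to 0.213 for Flna, and each of these calls was lost without a filter. Except for the removal of libraries, the cause of these changes was not tested. Genes with under 100 counts, such as Anxa1 and Anxa3, are measured least precisely.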
